A study of Oryctolagus cuniculus with 6 samples.

Results

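The integrated stress response genes described here are 10 of the 28788 genes in the deposited tables, found by their symbols: EIF2AK3, ATF4, ATF5, DDIT3, NUPR1, TRIB3, PPP1R15A, ASNS, CHAC1 and SESN2. All 10 had a row, and all 10 passed the filter on low counts. Of these, 9 were taken for their place in the ATF4 pathway, and NUPR1 was chosen by its measured values, because it was higher in the retinas with proliferative vitreoretinopathy (PVR). The values of NUPR1 in that comparison are therefore a description and carry no test. RNA was sequenced from 3 normal rabbit retinas and from 3 retinas of the rabbit PVR model. In the model, adult rabbits had the sclera punctured, part of the vitreous was aspirated, and platelet-rich plasma was injected into the vitreous cavity. The strain, the time of collection, any procedure in the normal eyes, and whether each sample came from its own animal are not given in the sources used here. The p-values thus measure the spread between these samples, which may be partly technical.

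The integrated stress response is a program by which cells lower general protein synthesis and turn on repair genes. Kinases that sense misfolded protein, amino acid shortage, heme shortage or viral RNA phosphorylate the initiation factor eIF2, and the mRNA of ATF4 is then translated more efficiently. ATF4 protein switches on genes for amino acid supply, redox balance and feedback, among them DDIT3, TRIB3, ASNS and CHAC1. Because ATF4 is controlled mainly at translation, the RNA level of ATF4 itself is not a direct measure of its activity, whereas the RNA of its targets is commonly used as a readout. NUPR1 encodes a small, disordered chromatin-binding protein that is induced by many stresses and is itself known as an ATF4 target. In the retina the response is known from photoreceptor degeneration and optic nerve injury.

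The samples held between 31904593 and 43035080 counted reads. Rod markers were abundant in all of them, with a summed level over 8 genes of 40466 to 47596 CPM (counts scaled to an equal library total) in the normal samples and 28730 to 39398 CPM in the PVR samples. Normal replicate 2 stood apart in lens transcripts, with 32692 CPM over 9 lens genes against 12.2 and 15.6 CPM in the other normal samples and 261 to 300.1 CPM in PVR. Differential expression was tested with edgeR's quasi-likelihood method over 18697 genes, with Benjamini-Hochberg adjustment, and the threshold for a call was an adjusted p under 0.05 together with a log2 ratio beyond 1 in size. Levels are given as FPKM, the count per kilobase of gene and scaled to the library total, which can be compared between genes. Changes are log2 ratios of PVR over normal from the edgeR fit, so values above 0 are higher in PVR. They use TMM library factors, which FPKM does not, and the ratio of 2 FPKM means can thus differ a little from the fitted one.

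NUPR1 was nearly silent in the normal retinas and present in every PVR retina. Its FPKM was 0.179, 0.239 and 0.452 in normal replicates 1 to 3 and 4.37, 4.61 and 4.44 in PVR replicates 1 to 3. The groups were far apart, and the PVR samples were close to each other. The mean was 0.290 ± 0.144 (SD, n = 3) in normal and 4.47 ± 0.124 (SD, n = 3) in PVR, a ratio of 15.4. These levels rest on few reads, namely 5, 7 and 13 in normal retina, against 100, 107 and 137 in PVR retina. For the lowest of them, the 5 reads of normal replicate 1, the exact 95% Poisson interval was 1.62 to 11.7. For the 13 reads of normal replicate 3 it was 6.92 to 22.2, and for the 100 reads of PVR replicate 1 it was 81.4 to 122. Such intervals cover counting error only and are no test of the difference between the groups. The fitted log2 ratio was 3.86. Over 14 other settings it lay between 2.09 and 4.31, and the lowest value came from the log2(FPKM + 1) scale, which shrinks low genes. In bulk retina, more cells that express NUPR1 and more NUPR1 RNA per cell cannot be told apart.

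**Figure D1:**
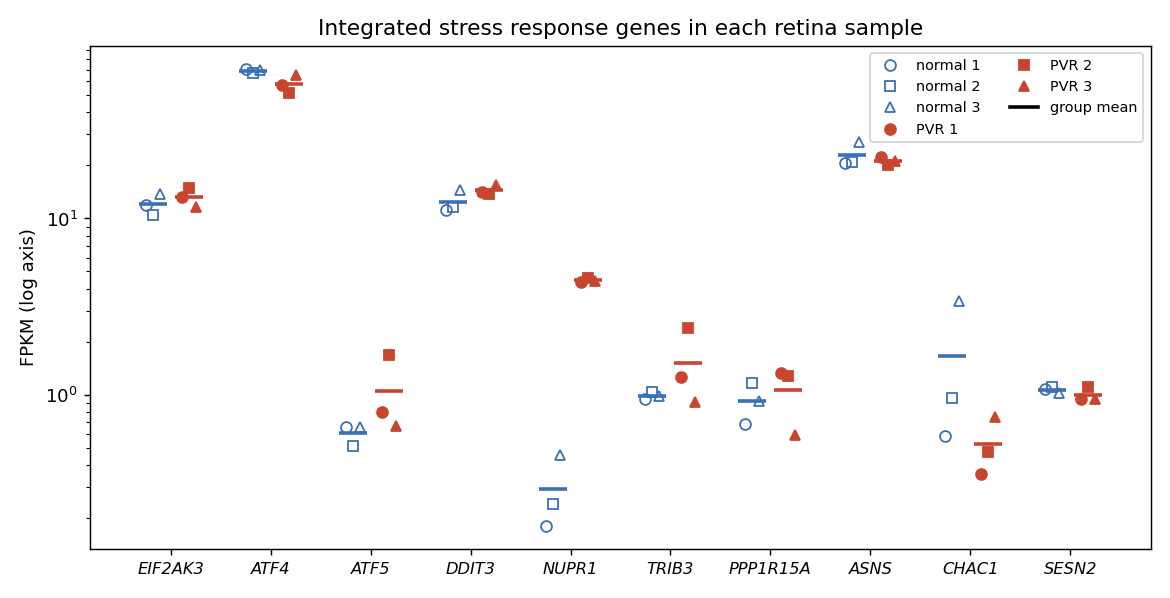
FPKM of the 10 genes on a log axis, with open blue symbols for the 3 normal and filled red symbols for the 3 PVR retinas and bars for group means. NUPR1 goes from a mean of 0.290 to 4.47, ATF4 lies lower in all 3 PVR samples, ATF5 and TRIB3 are high in PVR replicate 2, and CHAC1 is high in normal replicate 3.

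None of the 9 other genes was called, against 1.01% of all genes tested (0.69% higher and 0.316% lower in PVR). By the edgeR test 2 of the 9 had an unadjusted p under 0.05, namely ATF4 and CHAC1, both lower in PVR, where 21.2% of all genes tested had such a p. None was called with DESeq2 either, against 4.02% of all genes to which it gave an adjusted p, and none with limma-voom. The ratios went both ways, with 5 above and 4 below 0, and the median was 0.07, beside -0.01 over all genes tested. With single samples left out, this median ran from -0.063 to 0.11. For 5 of the 9 (EIF2AK3, ATF4, DDIT3, ASNS and SESN2) the 95% interval of the log2 ratio lay wholly between -1 and 1. The intervals of ATF5, TRIB3 and PPP1R15A reached above 1, and that of CHAC1 reached below -1, so for these 4 genes a change past the threshold in size lies inside the interval. The study searched for changed genes in human samples and used the rabbit sequencing to check its key genes TIMP1 and STAT3. It listed NUPR1 among the ferroptosis-related genes that were higher in human PVR. The tests given here were run anew on the rabbit counts, and in them none of these 9 genes was called.

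EIF2AK3 encodes PERK, the eIF2 kinase of the endoplasmic reticulum. Its FPKM was 11.9, 10.5 and 13.8 in normal retina, against 13.3, 15.0 and 11.6 in PVR retina, and the groups overlapped. Its log2 ratio was 0.07 (95% interval -0.21 to 0.34, adjusted p = 0.762 from edgeR). The sign turned without normal replicate 2 and without PVR replicate 2, where the ratio was -0.0032 and -0.015.

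ATF4, the central transcription factor of the response, was by far the most abundant of the 10 genes. The normal samples had an FPKM of 70.8, 67.3 and 69.4, and the PVR samples had 57.2, 51.4 and 65.1. All 3 PVR samples were below all 3 normal samples, as in 14.6% of all genes tested. This gave a log2 ratio of -0.33 (standard error 0.10, 95% interval -0.57 to -0.09). The adjusted p was 0.139 from edgeR (0.0141 before adjustment). Over the 15 other settings the adjusted p lay between 0.0491 and 0.398 and the ratio between -0.43 and -0.24. The lowest p came from the test without PVR replicate 3, the PVR sample with the highest ATF4. The direction was opposite to that of NUPR1, and the difference did not pass the adjusted threshold with all samples.

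ATF5, a related leucine zipper factor that is also controlled at translation, was low. Its FPKM was 0.655, 0.512 and 0.657 in normal retina, against 0.801, 1.67 and 0.665 in PVR retina. The high mean in PVR came from replicate 2, which had 70 reads, while the others had 33 and 37. Its log2 ratio was 0.70 (95% interval -0.32 to 1.73, adjusted p = 0.385 from edgeR), and it was 0.21 without PVR replicate 2. DDIT3 encodes CHOP, a factor that favours cell death under prolonged stress. Its FPKM was 11.1, 11.6 and 14.5 in normal retina, against 14.1, 13.9 and 15.5 in PVR retina. The normal range reached into the PVR range through normal replicate 3. The log2 ratio of DDIT3 was 0.15 (95% interval -0.22 to 0.53, adjusted p = 0.606 from edgeR). With single samples left out it ran from 0.085 without normal replicate 1 to 0.27 without normal replicate 3.

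TRIB3 and PPP1R15A are feedback genes of the response. TRIB3 is a pseudokinase that binds ATF4 and CHOP and is induced by both, and PPP1R15A encodes GADD34, the stress-induced subunit that brings a phosphatase to eIF2. TRIB3 had an FPKM of 0.943, 1.03 and 0.983 in the normal samples, which were close together. In PVR it had 1.26, 2.38 and 0.905, so that replicate 2 was high and replicate 3 was below every normal sample. This gave a log2 ratio of 0.54 (95% interval -0.32 to 1.40, adjusted p = 0.424 from edgeR). Without PVR replicate 2, it was 0.07. PPP1R15A had an FPKM of 0.683, 1.16 and 0.917 in normal retina, against 1.32, 1.28 and 0.589 in PVR retina. The PVR samples held both the highest and the lowest value. PPP1R15A had a log2 ratio of 0.13 (95% interval -0.77 to 1.02, adjusted p = 0.867 from edgeR), and it was slightly below 0 without normal replicate 1, PVR replicate 1 or PVR replicate 2, at -0.043, -0.063 and -0.016.

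The last 3 genes are effectors. ASNS, which makes asparagine and is a classical ATF4 target, had 20.7, 20.9 and 27.0 FPKM in normal retina, against 22.5, 20.03 and 21.2 in PVR. Apart from normal replicate 3, the samples of both groups were nearly level. For ASNS the log2 ratio was -0.17 (95% interval -0.44 to 0.09, adjusted p = 0.411 from edgeR), and it was -0.05 without normal replicate 3. SESN2, a stress-induced inhibitor of the growth kinase complex mTORC1, had an FPKM of 1.08, 1.10 and 1.02 in normal retina, against 0.948, 1.10 and 0.941 in PVR retina. Its log2 ratio was -0.17 (95% interval -0.51 to 0.17, adjusted p = 0.519 from edgeR), and the groups overlapped.

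CHAC1 breaks down glutathione and is among the most inducible targets of ATF4. It had an FPKM of 0.580, 0.961 and 3.40 in normal retina, against 0.355, 0.473 and 0.742 in PVR retina. Normal replicate 3 stood well above all other samples, with 205 reads against 34 and 59 in the other normal samples and 17, 23 and 48 in PVR. CHAC1 had a log2 ratio of -1.69 (95% interval -3.28 to -0.11, adjusted p = 0.213 from edgeR, 0.0390 before adjustment). Without normal replicate 3 the ratio was -0.63. Its adjusted p lay between 0.0827 and 0.482 over the 15 other settings.

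**Figure D2:**
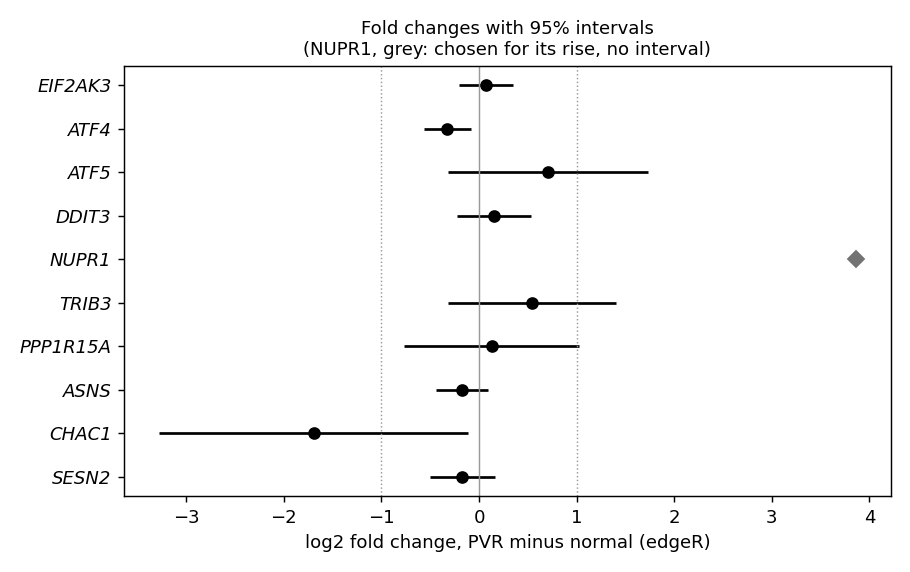
Log2 ratios (PVR over normal, edgeR) of the 10 genes, with 95% intervals as horizontal lines for the 9 genes other than NUPR1 and dotted lines at -1 and 1. NUPR1 stands alone at 3.86, and the intervals of 5 of the other 9 genes lie between the dotted lines.

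Ordered by mean FPKM, the normal samples ran from ATF4 (69.2) through ASNS (22.9), DDIT3 (12.4) and EIF2AK3 (12.1) to CHAC1 (1.65), SESN2 (1.07), TRIB3 (0.985), PPP1R15A (0.920), ATF5 (0.608) and NUPR1 (0.290). DDIT3 and EIF2AK3 did not differ beyond their ranges, nor did the neighbours from CHAC1 down to PPP1R15A. The range of NUPR1, the lowest gene, did not reach that of ATF5. In PVR the first 4 places were the same, and NUPR1 held place 5, clear of EIF2AK3 (13.3) above it and of TRIB3 (1.52) below it. The remaining order was PPP1R15A (1.06), ATF5 (1.05), SESN2 (0.997) and CHAC1 (0.523), where neighbouring ranges overlapped from TRIB3 down to SESN2.

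The samples of one group did not deviate together across the genes. In PVR replicate 2, ATF5 and TRIB3 were 1.04 and 0.95 above their means over the 6 samples on the log2 CPM scale, while ATF4 was 0.35 below its mean and reached its lowest level of all 6 samples. In normal replicate 3, CHAC1 was 2.05 and ASNS 0.30 above the mean, and NUPR1 had its highest normal level there. The same normal sample was the highest of the 6 for 39 of 99 tested genes of the wider pathway, or 39.4%, against 18.3% of all genes tested. Of the 13 aminoacyl-tRNA synthetases, 9 were highest in it.

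**Figure D3:**
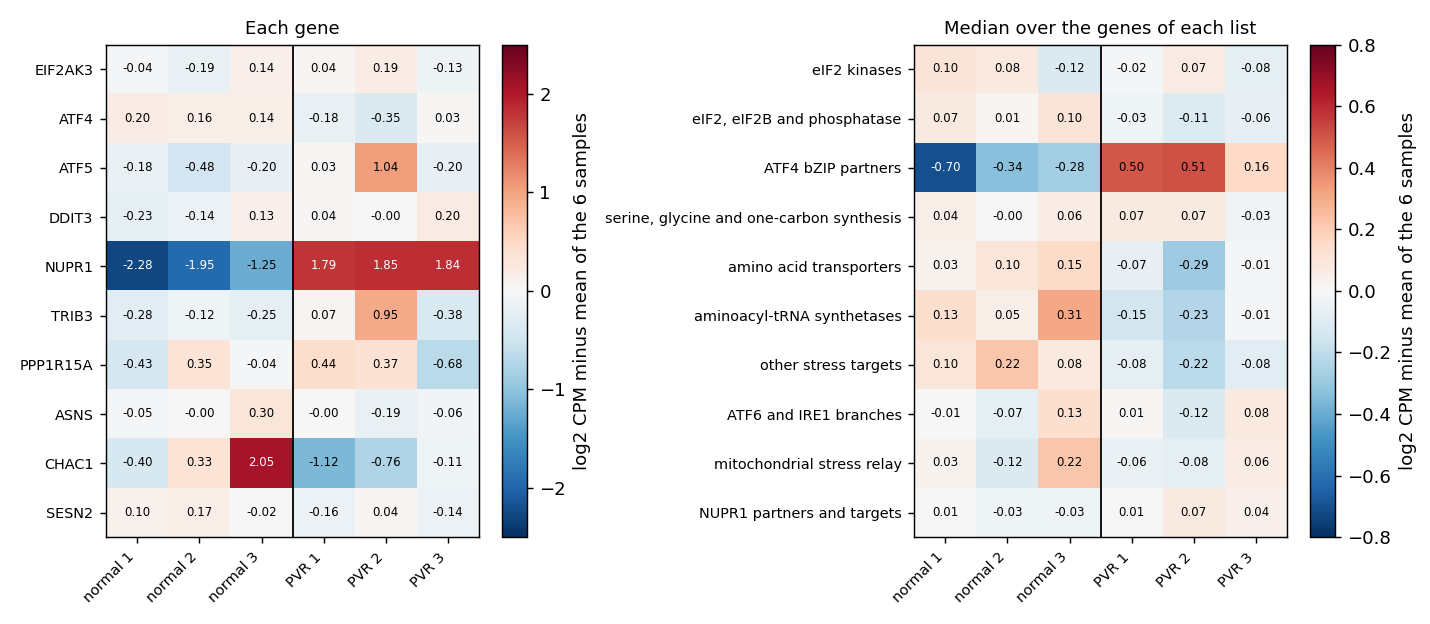
Log2 CPM of each gene (left) and median over the genes of each pathway list (right), each relative to the mean of the 6 samples, with red above and blue below the mean and different colour scales in the panels. NUPR1 separates the groups, CHAC1 stands at 2.05 in normal replicate 3, and ATF5 and TRIB3 stand at 1.04 and 0.95 in PVR replicate 2.

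The pathway beyond these 10 genes was followed in 10 lists of 106 genes, of which 102 were matched and 99 tested. Only FOS was called by edgeR with all samples, and 1 further gene, GPT2, had an adjusted p under 0.05 with a smaller ratio. That is 2 of 99, or 2.02%, against 1.7% of all genes tested. With DESeq2, 10 of the 99 genes, or 10.1%, had an adjusted p under 0.05, against 8.75% of all genes to which it gave an adjusted p. Both shares are near the background. The groups did not overlap for 33 of the 99, or 33.3%, against 28% of all genes tested. The median log2 ratio was -0.10, with 30 genes above and 69 below 0, beside 9146 above and 9551 below over all genes tested. On both FPKM scales, which lack the TMM factors, 44 were above and 55 below 0. Over all genes 10743 were then above and 7954 below on the log2(FPKM + 1) scale.

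**Figure D4:**
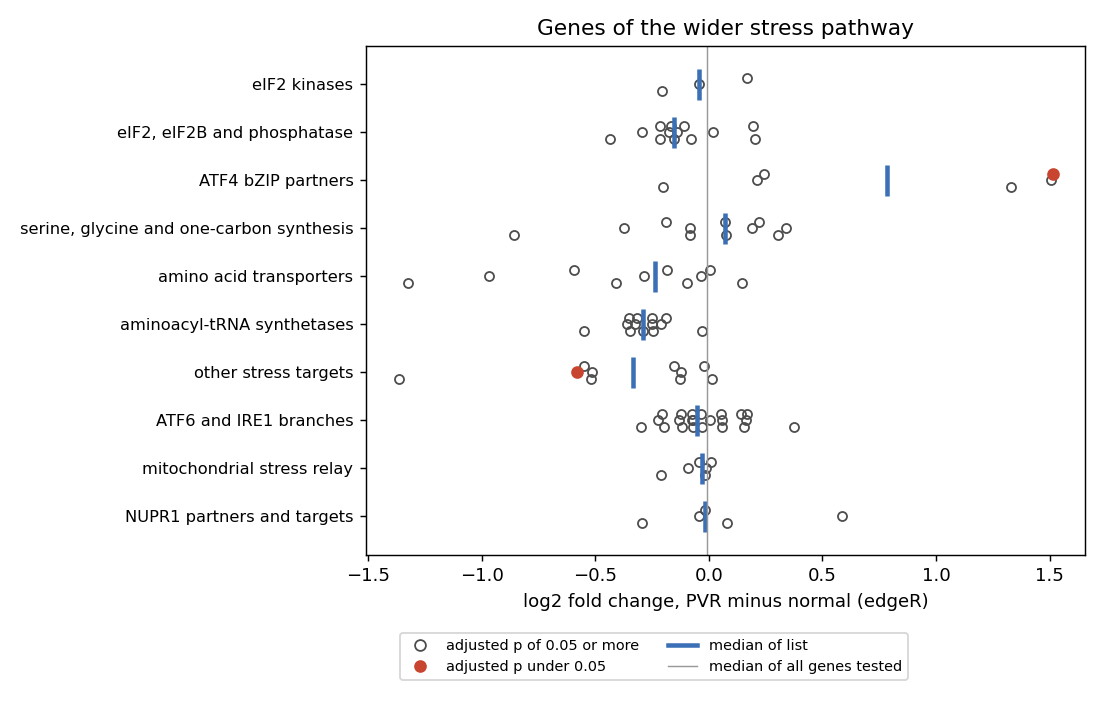
Log2 ratios (PVR over normal, edgeR) of the 99 tested genes in 10 pathway lists, with filled red points for an adjusted p under 0.05, blue bars for list medians and a grey line for the median of all genes. FOS and GPT2 are the filled points, and all 13 aminoacyl-tRNA synthetases lie below 0.

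The leucine zipper partners of ATF4 had the highest list median, 0.79 over 6 genes. By edgeR 5 of the 6 had an unadjusted p under 0.05, against 21.2% of all genes tested. With DESeq2 3 were called, against 4.02% of all genes to which it gave an adjusted p. The groups did not overlap for 5 of the 6, with 1 of these lower in PVR, against 28% of all genes tested. FOS, an immediate early gene, had an FPKM of 8.63, 12.8 and 9.93 in normal retina and rose to 31.5, 41.1 and 21.9 in PVR. All PVR samples were above all normal samples, and the log2 ratio was 1.51 (SE 0.24, adjusted p = 0.0359 from edgeR). Its call was lost without any one of the normal samples, PVR replicate 1 or PVR replicate 2, where the adjusted p lay between 0.0546 and 0.190. CEBPB and ATF3, which pair with ATF4 or follow it, missed the threshold with edgeR, and they are named because of their values. CEBPB had 1.32, 1.70 and 2.001 FPKM in normal retina, against 5.13, 6.49 and 3.41 in PVR (log2 ratio 1.51, adjusted p = 0.0510 from edgeR and 3.49e-05 from DESeq2). ATF3 had 1.54, 2.32 and 2.34 FPKM against 6.15, 6.40 and 3.86 (log2 ratio 1.33, adjusted p = 0.0612 from edgeR and 0.000108 from DESeq2). In both genes the groups did not overlap, with PVR higher, as in 13.4% of all genes tested. CEBPG, a partner of the CEBP factors, went the other way, with 18.9, 17.2 and 18.3 FPKM in normal retina, against 15.4, 17.6 and 16.6 in PVR (log2 ratio -0.20, adjusted p = 0.191 from edgeR). Its groups overlapped in FPKM but not in TMM-scaled CPM, where PVR was lower. Of the others, JUN had an FPKM of 35.7 ± 10.6 (SD, n = 3) in normal and 43.3 ± 2.81 (SD, n = 3) in PVR, and NFE2L2, the regulator of antioxidant genes, had 18.3 ± 1.12 and 22.7 ± 0.536 (SD, n = 3 each). For NFE2L2 the log2 ratio was 0.24 (adjusted p = 0.109 from edgeR, 0.00727 before adjustment), and for JUN it was 0.21 (adjusted p = 0.526 from edgeR).

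At the top of the pathway, none of the 3 other eIF2 kinases passed the edgeR test, with unadjusted p at or above 0.05 in all 3. The heme-regulated kinase EIF2AK1 had an FPKM of 27.7 ± 1.82 in normal and 28.2 ± 1.36 in PVR (SD, n = 3 each). The RNA-activated kinase EIF2AK2 had 12.01 ± 2.51 and 10.98 ± 1.25, and the amino acid sensor EIF2AK4 had 10.1 ± 0.649 and 11.9 ± 0.747 (SD, n = 3 each). Of the 13 genes for eIF2, its exchange factor eIF2B and the phosphatase, none passed the edgeR test. An unadjusted p under 0.05 was found for 3, against 21.2% of all genes tested. With DESeq2 1 passed, against 8.75% of all genes. That gene was EIF2B5, the catalytic subunit of eIF2B (log2 ratio -0.43, adjusted p = 0.0735 from edgeR and 0.0113 from DESeq2). The phosphatase subunits PPP1CC and PPP1CB, the most abundant of the list, had 411 ± 23.4 and 145 ± 11.99 FPKM in normal and 437 ± 8.01 and 135 ± 15.2 FPKM in PVR (SD, n = 3 each).

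All 13 aminoacyl-tRNA synthetases, the enzymes that charge tRNAs with amino acids, had a ratio below 0, with a median of -0.29. None passed the edgeR test, and 7 had an unadjusted p under 0.05, against 21.2% of all genes tested. With DESeq2 1 passed, against 8.75% of all genes. For 8 of the 13 all PVR samples were below all normal samples in TMM-scaled CPM, against 14.6% of all genes tested. Among these 8, the groups of CARS1, GARS1 and YARS1 overlapped in FPKM. IARS1, which charges isoleucine tRNA, had an FPKM of 48.3, 45.9 and 54.6 in normal and 35.6, 31.2 and 39.6 in PVR (log2 ratio -0.55, adjusted p = 0.0634 from edgeR and 0.000942 from DESeq2). SARS1, the most abundant, had 70.6 ± 2.21 in normal and 62.4 ± 0.963 in PVR (SD, n = 3 each). Without normal replicate 3 all 13 remained below 0 and the median was -0.21. On both FPKM scales, and without normal replicate 1 or PVR replicate 2, 12 of 13 were below 0, with medians between -0.30 and -0.21.

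Of 10 amino acid transporters, 8 had a ratio below 0 (median -0.24). None passed the edgeR test, 2 had an unadjusted p under 0.05 and 2 passed with DESeq2, beside 21.2% and 8.75% of all genes. The neutral amino acid carriers SLC1A4 and SLC1A5 were the latter pair, at log2 ratios of -0.60 (adjusted p = 0.139 from edgeR, 0.0299 from DESeq2) and -0.41 (0.107 and 0.0390). Without normal replicate 3 the ratio of SLC1A4 was -0.36 and the median of the list was -0.14. On the log2(FPKM + 1) scale, 7 of the 10 were below 0 and the median was -0.098. SLC7A11, the cystine carrier that feeds glutathione synthesis, had an FPKM of 8.80, 8.26 and 6.74 in normal and 9.04, 9.99 and 8.67 in PVR, and the groups overlapped. Serine, glycine and one-carbon genes were split, with 6 above and 5 below 0. None passed the edgeR test, 2 had an unadjusted p under 0.05 and 1 passed with DESeq2, beside 21.2% and 8.75% of all genes. ALDH1L2, a mitochondrial folate dehydrogenase and the other gene with such a p, had an FPKM of 2.92, 3.22 and 2.68 in normal and 4.02, 3.50 and 4.21 in PVR (log2 ratio 0.34, adjusted p = 0.223 from edgeR). PSAT1, which takes part in serine synthesis, was higher in all PVR samples than in any normal sample, as in 13.4% of all genes tested (log2 ratio 0.22, adjusted p = 0.297 from edgeR). MTHFD2, a mitochondrial folate enzyme and the gene past the DESeq2 test, had an FPKM of 9.24, 9.84 and 17.7 in normal and 8.14, 6.51 and 6.52 in PVR. The ratio was -0.86 on the log2 scale (adjusted p = 0.123 from edgeR and 0.00888 from DESeq2), and it was -0.52 without normal replicate 3, the highest sample.

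Among 10 other tested stress targets, GPT2, a mitochondrial alanine transaminase, fell from an FPKM of 17.2, 17.4 and 16.4 in normal retina to 11.2, 12.3 and 12.4 in PVR. The groups did not overlap, with PVR lower, as in 14.6% of all genes tested. The log2 ratio was -0.58 (SE 0.08, adjusted p = 0.0263 from edgeR). Over 15 other settings the adjusted p lay between 4.24e-05 and 0.192, and among the tests with a sample left out it was above 0.05 without normal replicate 1, normal replicate 2, PVR replicate 1 or PVR replicate 2. STC2, a secreted glycoprotein, had an FPKM of 3.90, 3.92 and 2.11 in normal and 0.937, 1.21 and 1.90 in PVR (log2 ratio -1.37, adjusted p = 0.106 from edgeR and 0.00512 from DESeq2). In this list 2 genes had an unadjusted p under 0.05, and the 2 named passed with DESeq2, beside 21.2% and 8.75% of all genes. The stress hormones GDF15 and FGF21 had too few reads to be tested.

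The other arms of the unfolded protein response had small ratios. Of 22 tested genes of the ATF6 and IRE1 branches, none passed the edgeR or the DESeq2 test, and ratios ran from -0.30 to 0.37. With edgeR 3 had an unadjusted p under 0.05, against 21.2% of all genes tested. The endoplasmic reticulum chaperone HSPA5, also known as BiP, had an FPKM of 131, 115 and 170 in normal and 163, 141 and 176 in PVR. HSP90B1, a further chaperone and the most abundant gene of the list, had 199.96 ± 55.5 and 199 ± 20.4 (SD, n = 3 each). A list on mitochondrial stress had 6 tested genes, OMA1, DELE1, HSPD1, HSPE1, HSPA9 and YME1L1. None of them passed either test or had an unadjusted p under 0.05, and ratios lay between -0.21 and 0.01. Among partners and targets of NUPR1, none of 5 tested genes passed either test or had an unadjusted p under 0.05. NUPR2, a paralog of NUPR1, had an FPKM of 1.93, 1.03 and 1.53 in normal and 1.26, 0.704 and 1.83 in PVR. LCN2, a secreted iron-binding protein described as a NUPR1 target, had 4, 2 and 0 reads in normal and 7, 4 and 11 in PVR, too few to be tested.

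The genes most like NUPR1 over the 6 samples are given as a description. Likeness was the root mean square difference of log2 CPM, each gene taken relative to its own mean, among 9516 genes with a symbol and a mean log2 CPM of at least 3. The 5 nearest were CP (0.41), which encodes the copper ferroxidase ceruloplasmin, CEBPD (0.51), an acute-phase transcription factor, GPNMB (0.54), a glycoprotein of macrophages and pigment cells, EDNRB (0.55), an endothelin receptor, and SERPING1 (0.65), an inhibitor of complement C1. The level filter left out low genes, among them ATF5, TRIB3, CHAC1 and PPP1R15A. NUPR1 itself had a mean log2 CPM of -0.16, so every gene compared with it had a higher mean, and no gene at its own level was eligible. CEBPD and GPNMB were under this level in the normal samples and passed it through PVR, where they were high. All 5 neighbours were higher in PVR, with log2 ratios from 2.72 for SERPING1 to 3.23 for CP. The likeness rests on the step between the groups, for which NUPR1 was chosen.

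**Figure D5:**
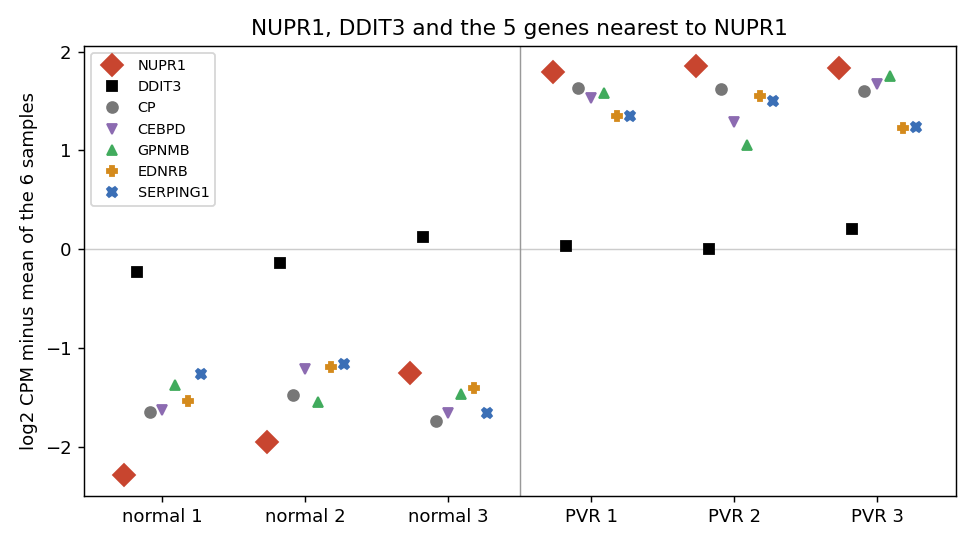
Log2 CPM of NUPR1, DDIT3 and the 5 genes nearest to NUPR1 in the 3 normal and 3 PVR samples, each relative to its own mean over the 6 samples. NUPR1 and its neighbours lie at or below -1.16 in the normal samples and at or above 1.06 in PVR, whereas DDIT3 stays between -0.23 and 0.20.

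Summed marker levels of several cell types had separate ranges in the groups. Of 15 tested macrophage and microglia markers, all 15 had a ratio above 0. None was called by edgeR. An unadjusted p under 0.05 was found for 9 of the 15, against 21.2% of all genes tested, and 3 were called by DESeq2, against 4.02%. None was at or under 3 reads in every sample. Their summed level was 42.5 to 88.8 CPM in the normal samples and 110.6 to 146 CPM in the PVR samples. Normal replicate 3 had the lowest macrophage sum of all 6. Fibroblast markers summed to 77.1 to 109 CPM in normal and to 218, 106 and 329 CPM in PVR replicates 1 to 3. Mueller glia markers summed to 2804 to 3608 CPM in normal and 2639 to 3004 CPM in PVR, with 5 of 10 markers above and 5 below 0. GLUL, the glutamine synthetase of these cells, was called lower (log2 ratio -1.11, adjusted p = 0.0125 from edgeR), and RLBP1, a retinoid-binding protein, fell by less than the fold threshold (-0.89, adjusted p = 0.0294). GFAP, the filament of reactive glia, had an FPKM of 20.02, 60.5 and 86.1 in normal and 157, 164 and 138 in PVR (log2 ratio 1.39, adjusted p = 0.143 from edgeR). Oligodendrocyte markers summed to 249 to 1209 CPM in normal, highest in replicate 3, and to 137 to 156 CPM in PVR. All 8 had a ratio below 0 (median -2.26) and did not overlap between the groups, against 14.6% of all genes lower without overlap. By edgeR 3 of the 8 were called lower, against 0.316% of all genes tested, and 7 were called lower by DESeq2. Pigment epithelium markers summed to 172 to 416 CPM in normal and 99.8 to 122 CPM in PVR, and red blood cell markers to 29.2 to 34.2 and 12.6 to 21.8 CPM. Of 8 tested pigment epithelium markers, 7 had a ratio below 0 and 1 above, and 2 were called lower by edgeR. All 8 rod markers had a ratio below 0 (median -0.32), and none was called by edgeR. Endothelial markers summed to 603 to 658 CPM in normal and 701 to 724 CPM in PVR, a sum carried by KDR and FLT1, while 5 of the 8 genes had a ratio below 0 (median -0.97) and 2, VWF and CDH5, were called lower. The part of these cell types in the values of NUPR1, CHAC1 or the synthetases was not tested. Without normal replicate 2, the sample with lens transcripts, NUPR1 had a log2 ratio of 3.76 and none of the other 9 genes was called.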

How the data were processed

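Polyadenylated RNA of 3 normal and 3 PVR rabbit retinas was measured, and samples were grouped by their titles. The authors filtered the reads, aligned them to OryCun2.0 with HISAT2 and deposited raw read counts per gene from htseq-count. The annotation release and the strand setting are not given in the sources used here. The study's methods and the sample labels name different library kits. The authors also deposited FPKM values, which use the same reads, since counts divided by FPKM gave 1 length per gene in every sample (largest relative difference 4.24e-09). The total count per sample was 31904593 to 43035080.

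R 4.3.3 and edgeR 4.0.16 were used for the main test (default filter on low counts, TMM factors, quasi-likelihood F test on condition, Benjamini-Hochberg adjustment over 18697 genes). The study named DESeq2, and DESeq2 1.42.0 and limma 3.58.1 were used as alternatives. The standard error is the fold change divided by the square root of F, and overlap was judged on TMM-normalised CPM. Log2 CPM used a prior count of 2. Tests were checked on simulated counts, where DESeq2 found more of the changed genes than edgeR but also made more false calls. EdgeR missed part of the changed genes there. Other settings were RLE and upper-quartile factors, no filter, at least 10 counts in every sample, log2(FPKM + 1), log2(FPKM + 0.1), leaving out each sample, and a block for the replicate number. Summaries used Python 3.11.15 with pandas 2.3.3 and SciPy 1.17.1.

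The genes and lists were chosen with earlier results of these data known. Named genes are the 10 members, pathway genes with an adjusted p under 0.05, the 3 most abundant further genes of a list where useful, and the 5 genes nearest to NUPR1. The genes past the DESeq2 test, CEBPG, ALDH1L2, PSAT1, SLC7A11, NUPR2, LCN2, GDF15, FGF21 and marker genes were named after their values were seen. Genes were matched by symbol, otherwise by identifier through RefSeq's table. That table is of mOryCun1.1, another build than that of the files, so no positions are given. A planned search of promoter windows for ATF4 and ATF6 motifs was not run, since no promoter sequences were used here.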

Additional observations from a re-analysis of the deposited data

How the results depend on the processing

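The count of stress response genes other than NUPR1 that were called was 0 in the main test and in all 15 alternatives. In the main test 1.01% of all genes tested were called, so a count of 0 in so small a set is near the background share. The count of 0 therefore cannot show that these genes were unchanged, or that they differed from other genes. The counts over all genes, 129 higher and 59 lower, moved with the tool: to 564 and 243 with DESeq2, to 68 and 19 on the log2(FPKM + 1) scale, to 37 lower with limma-voom and to 31 lower with at least 10 counts in every sample. With single samples left out they ran from 16 to 373 higher and from 6 to 159 lower. The lowest counts came without PVR replicate 1, the most higher calls without PVR replicate 3 and the most lower calls without normal replicate 3. Of the pathway genes, 1 was called, against 4 with DESeq2, 2 without a filter, and 0 to 3 with a sample left out: 0 without any normal sample, PVR replicate 1 or PVR replicate 2, and 3 without PVR replicate 3.

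With samples left out, the fold change of PPP1R15A ran from -0.063 to 0.41 and that of EIF2AK3 from -0.015 to 0.16, and both changed sign. NUPR1 had no value where 10 counts were required in every sample.

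The replicate block gave 56 higher and 26 lower genes. With it GPT2 had an adjusted p of 0.0820. Whether the shared numbers pair the samples is not given in the sources used here. Deviations of same-numbered samples correlated at -0.01, 0.07 and 0.04, and those of differently numbered samples at -0.083 to 0.043. Not every sample correlated best with its own number. Correlations this weak cannot decide whether the samples were paired. Counting error is widest for genes with few reads, such as NUPR1 in the normal samples (5 to 13 reads) and ATF5 (27 to 70 reads).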
